A study of Arabidopsis thaliana with 6 samples.

Results

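ABI1, ABI2, PP2CA, HAI1, HAI2 and AT3G16800, which encode 6 type 2C protein phosphatases (PP2Cs), were followed in Arabidopsis thaliana seedlings that overexpress the clock protein TOC1. They were chosen by name, as the phosphatases of abscisic acid (ABA) signalling and 1 further PP2C gene, with earlier results of these data known. Each was read at 1 ATH1 probe set. The 6 probe sets are 253994_at for ABI1 (AT4G26080), 247957_at for ABI2 (AT5G57050), 259231_at for PP2CA (AT3G11410), 247723_at for HAI1 (AT5G59220), 261077_at for HAI2 (AT1G07430) and 257650_at for AT3G16800, out of 22746 tested. The probe annotation used here lists a gene for 1 of the 6, AT3G16800. The other 5 assignments were given with the list of members and were not checked against probe sequences here. Wild-type (WT) seedlings of ecotype Col0 were compared with TOC1-ox seedlings labelled with the same ecotype, with 3 arrays per group that the series calls biological replicates. No drug, hormone or stress treatment is named in the labels for either group. All seedlings were 12 days old, had grown on MS3 medium with 12 h of light and 12 h of dark a day, and were harvested at zeitgeber time 15, which is 3 h into the dark. The sources used here do not give the promoter that drives TOC1, nor whether TOC1-ox is 1 line or several. Whole seedlings were measured, so that fewer cells of a type and less RNA per cell cannot be told apart. No other time of day was measured, so a lower level at this time cannot be told from a lower level through the day.

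In the absence of ABA, clade A PP2Cs remove phosphate from SnRK2 kinases and so hold the ABA response off. ABA bound to its PYR/PYL receptors lets the receptors block these phosphatases, and the freed kinases activate transcription factors and ion channels. The clade A phosphatase genes are themselves induced by ABA, which forms a negative feedback loop. TOC1 is an evening-expressed transcriptional repressor of the plant clock, and raising its level was the only difference between the groups that the labels name.

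Of the 6 phosphatase genes, 2 fell in TOC1-ox seedlings: AT3G16800 fell by 3.70 on the log2 scale and HAI2 fell by 2.45. HAI1 had a log2 difference of -2.08 with no overlap between the groups, but it did not pass the test. ABI2 and PP2CA had lower means in TOC1-ox with overlapping groups, and ABI1 had nearly equal means. A call was a limma adjusted p under 0.05, and it was reached in the lower direction by 0.703% of all probe sets and in either direction by 1.78%. Leaving aside filters on mean level, AT3G16800 was called in 12 of 14 alternative fits, HAI2 in 5 and HAI1 in 1. TOC1-ox lay wholly below WT at 3 of the 6 genes, against 10.8% of all probe sets. The difference was negative at 5 of the 6, against 63.5% of all probe sets, and its median was -1.38 over the 6 genes and -0.02 over all probe sets. Since the genes were chosen with earlier results of these data known, these shares and medians are a description only.

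**Figure D1:**
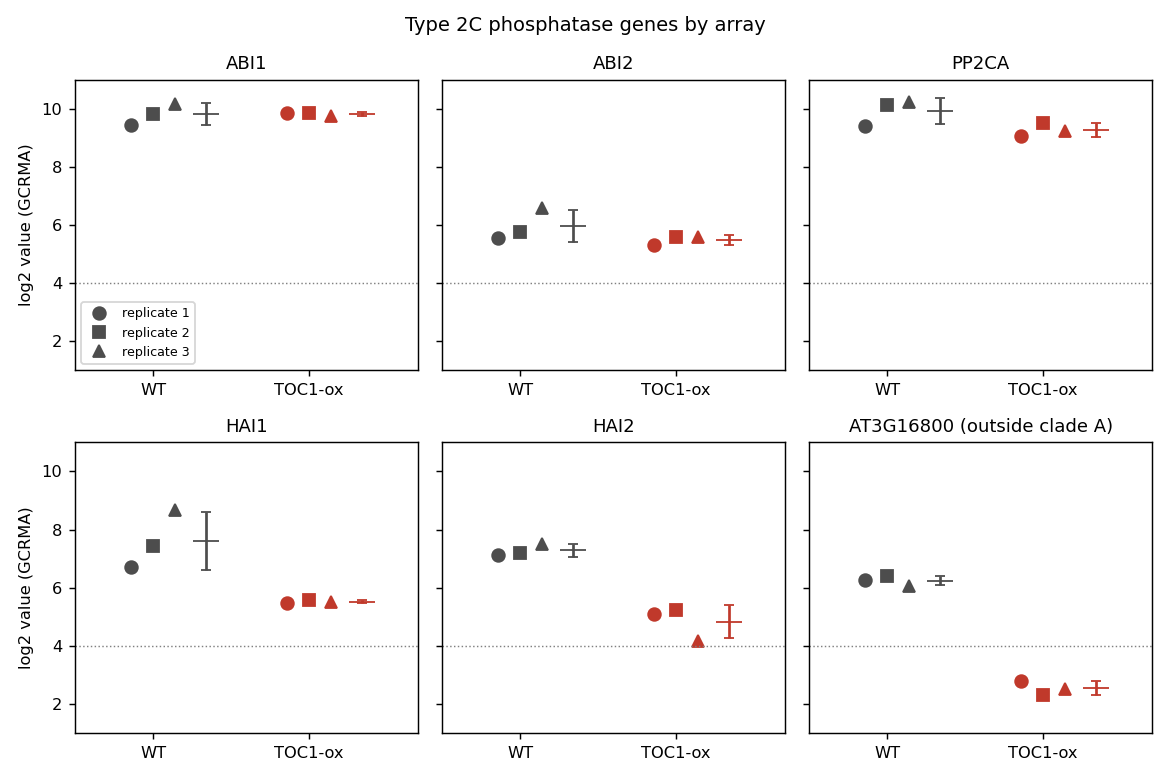
Log2 value of each phosphatase gene on each array, with WT in grey and TOC1-ox in red; symbols mark the replicate number, and bars to the right give the mean and SD of 3 arrays. The dotted line marks log2 4, below which values are dim; the 3 TOC1-ox values of AT3G16800 lie under it, at 2.31 to 2.79.

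TOC1-ox replicate 3 correlated with the other 2 TOC1-ox arrays at r = 0.977 and 0.978 across probe sets, against 0.996 between those 2 and 0.989 to 0.994 among the WT arrays. Labelling spike-ins of bacterial RNA set both arrays numbered 3 apart, with medians of 7.59 in WT and 7.01 in TOC1-ox against 2.81 to 4.84 on the others. What part either has in the results was not tested.

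ABI1 and ABI2 encode a pair of closely related phosphatases that are named for their ABA-insensitive mutants. ABI1 had log2 values of 9.44, 9.82 and 10.18 in WT replicates 1 to 3 and 9.85, 9.86 and 9.75 in TOC1-ox. The TOC1-ox values lay inside the WT range, and their SD was 0.06 against 0.37 in WT. The difference was 0.01 with a 95% confidence interval of -0.49 to 0.51 (limma, adjusted p = 0.988). It was 0.19 without WT replicate 3 and 0.23 among the arrays numbered 1 and 2 (adjusted p = 0.451 and 0.41). ABI2 had 5.55, 5.77 and 6.58 in WT and 5.30, 5.58 and 5.58 in TOC1-ox. The groups overlapped by 0.03, since WT replicate 1 lay just under the highest TOC1-ox value. The ABI2 difference was -0.48 with an interval of -1.23 to 0.27 (adjusted p = 0.528), and without WT replicate 3 it was -0.17 (adjusted p = 0.471).

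PP2CA, also called AHG3, encodes a clade A phosphatase known for its part in seed germination and in control of SnRK2 kinases. It had 9.42, 10.14 and 10.25 in WT and 9.05, 9.51 and 9.23 in TOC1-ox. Here too WT replicate 1 was the lowest WT value, and it lay 0.08 below TOC1-ox replicate 2. The difference was -0.67 with an interval of -1.35 to -0.001, or 1.6-fold lower in TOC1-ox on average (limma, unadjusted p = 0.0498, adjusted p = 0.305). It was -0.52 without WT replicate 3 and -0.50 among the arrays numbered 1 and 2 (adjusted p = 0.37 and 0.41). An unadjusted p this small or smaller in the lower direction was not rare, since 8.32% of all probe sets had one under 0.05.

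HAI1 and HAI2 encode clade A phosphatases named for their strong induction by ABA. HAI1 is also known as SAG113, a senescence-associated gene, and HAI2 as AIP1, which interacts with the potassium channel AKT1. HAI1 had 6.71, 7.45 and 8.66 in WT and 5.46, 5.59 and 5.52 in TOC1-ox. The WT arrays were spread over 1.95 log2 units and the TOC1-ox arrays over 0.13, with a gap of 1.12 between the groups. The difference was -2.08 ± 0.51 (standard error), 4.24-fold lower in TOC1-ox with an interval of 1.71 to 10.5-fold (limma, adjusted p = 0.138). Only 135 of 22746 probe sets had a more negative difference, whereas 1554 had a smaller p. The adjusted p was 0.0482 when only probe sets averaging log2 4 or more were tested and 0.00873 with array weights, which gave WT replicate 3 a weight of 0.135. The fit with that filter called 852 probe sets and the fit with array weights 6182, against 405 in the fit of all arrays. Without WT replicate 3 the difference was -1.56 (adjusted p = 0.11).

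HAI2 had 7.11, 7.21 and 7.52 in WT and 5.08, 5.24 and 4.17 in TOC1-ox. Every TOC1-ox value lay at least 1.87 below the lowest WT value, and TOC1-ox replicate 3 was the lowest of all. The gene fell 5.46-fold, with an interval of 3.10 to 9.61-fold (log2 difference -2.45 ± 0.32; limma, adjusted p = 0.0421). It ranked behind 94 probe sets by the size of the fall. Without TOC1-ox replicate 3 the difference was -2.12 (adjusted p = 0.00573), in a fit that called 2955 probe sets against 405 with all arrays. The call ended when any other single array was left out, with adjusted p of 0.111 to 0.155, and with a batch term for the arrays numbered 3 (0.0538), quantile normalization (0.0563) or a robust prior (0.0524).

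**Figure D2:**
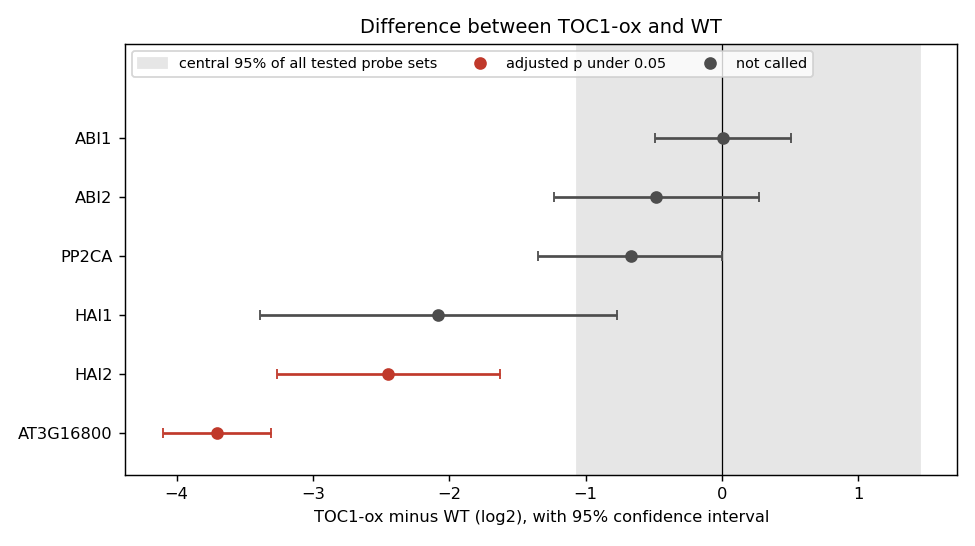
Log2 difference, TOC1-ox minus WT, of each phosphatase gene with its 95% confidence interval from limma; red marks an adjusted p under 0.05. The grey band holds the central 95% of differences over all tested probe sets, -1.06 to 1.45, and HAI1, HAI2 and AT3G16800 have means to the left of it.

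AT3G16800 encodes a PP2C placed outside clade A, from knowledge of the family rather than from the annotation used. It had 6.27, 6.40 and 6.07 in WT and 2.79, 2.31 and 2.52 in TOC1-ox. The gap between the groups was 3.28, while neither group was spread over more than 0.48. The difference was -3.70 ± 0.15 (limma, adjusted p = 0.00594), and 7 probe sets of 22746 had a smaller p. On the deposited scale this is a 13.0-fold fall, but the TOC1-ox mean of 2.54 lay near the bottom of the scale, where the size of a fall is not well defined. Differences between arrays of the same number were -3.48, -4.09 and -3.54. The call ended without WT replicate 2 (difference -3.63, adjusted p = 0.0594), a fit in which 8 probe sets in all were called, and it held without each of the other 5 arrays.

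Another 2 loci had been listed as the nearest relatives of AT3G16800 in the PP2C family, also from knowledge of the family. AT3G05640 had 7.10, 7.35 and 7.27 in WT and 4.26, 4.63 and 5.15 in TOC1-ox. It fell by 2.56 ± 0.24 on the log2 scale, or 5.91-fold (limma, adjusted p = 0.0243), with no overlap between the groups. Without TOC1-ox replicate 3, its highest TOC1-ox value, the difference was -2.80 (limma, adjusted p = 0.00386). That fit called 2955 probe sets, against 405 with all arrays. Without each of the other 5 arrays the call of AT3G05640 ended (adjusted p of 0.0791 to 0.117). AT5G27930 had 5.68, 5.66 and 5.71 in WT and 5.67, 5.99 and 4.97 in TOC1-ox, with a difference of -0.14 ± 0.27 (adjusted p = 0.909), which was 0.15 without TOC1-ox replicate 3 (adjusted p = 0.547). The TOC1-ox arrays of AT5G27930 lay on both sides of the tight WT values. Whether the 3 relatives differ from each other in their response was not tested.

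Elsewhere in the PP2C family no measured gene passed. Of 44 further PP2C loci, a list added after the annotation had been seen, 27 had a named probe set and 0 were called (limma; 6, or 22.2%, had an unadjusted p under 0.05, against 16.4% of all probe sets). Their median difference was -0.07, and 7 of the 27 (25.9%) had groups that did not overlap, against 20.1% of all probe sets. At 6 of the 27 both group means lay under log2 4, where differences are compressed. The differences ran from -0.69 for AT3G02750 (adjusted p = 0.595) to 2.03 for AT1G67820. AT1G67820 had 3.30, 2.46 and 3.51 in WT and 5.14, 4.69 and 5.53 in TOC1-ox (adjusted p = 0.0728), with a dim WT level. AT5G10740 had 6.66, 6.76 and 6.62 in WT and 8.20, 8.23 and 6.96 in TOC1-ox (difference 1.12, adjusted p = 0.246); TOC1-ox replicate 3 lay near WT there. PIA1, a PP2C gene named for its induction by a bacterial avirulence protein and the only non-member that the gene table describes as a PP2C and the array annotation names, had a difference of 0.03 (adjusted p = 0.974).

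The clade A genes differed in level between the WT arrays, and in the same sense. WT replicate 3 was the highest WT array, and WT replicate 1 the lowest, at all 5 clade A genes, while at AT3G16800 replicate 3 was the lowest. Over all probe sets, WT replicate 3 was the highest WT array at 26.3%, and the share with WT replicate 1 lowest was not computed. The 5 genes were read on the same WT arrays, so they are not independent observations. WT replicate 3 exceeded the mean of WT replicates 1 and 2 by 0.55 at ABI1, 0.92 at ABI2, 0.47 at PP2CA, 1.58 at HAI1 and 0.36 at HAI2. An excess as large as that of HAI1 was found at 100 probe sets (0.44%). The TOC1-ox arrays did not follow this: replicate 3 differed from the mean of replicates 1 and 2 by -0.11, 0.14, -0.05 and 0.00 at ABI1, ABI2, PP2CA and HAI1, and by -0.99 at HAI2. At HAI1 the WT SD was 15.1 times the TOC1-ox SD, a ratio reached by 8.35% of all probe sets.

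**Figure D3:**
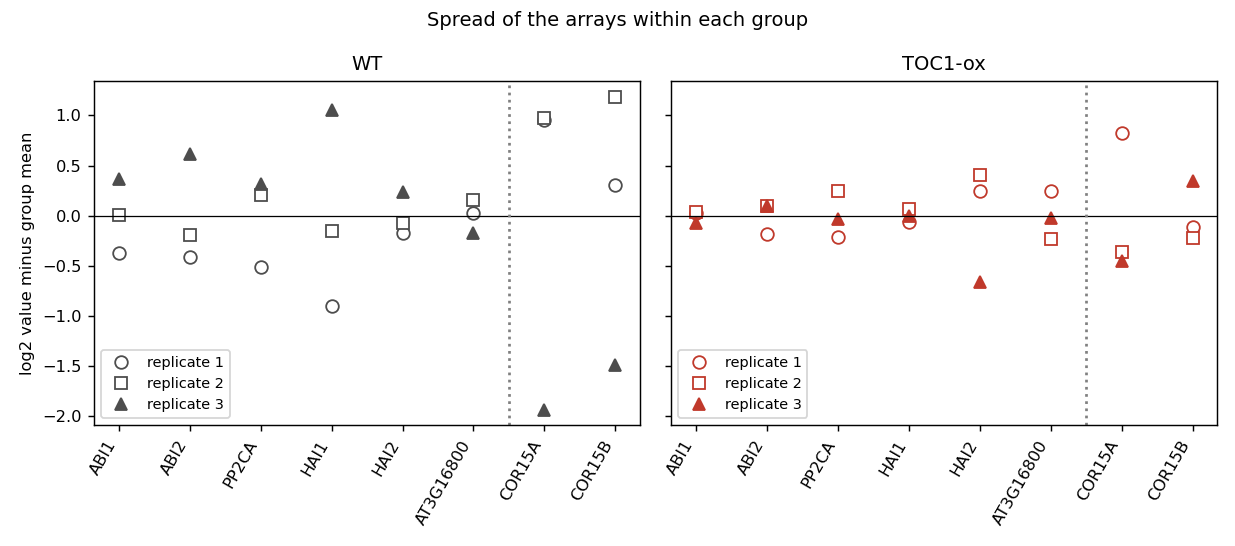
Log2 value of each array minus the mean of its group, for the 6 phosphatase genes and, right of the dotted line, COR15A and COR15B; filled triangles are replicate 3. In WT, replicate 3 lies highest at the 5 clade A genes and lowest at COR15A and COR15B.

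The size of the clade A differences varied with the arrays set against each other. Between arrays of the same number, which the labels do not describe as pairs, TOC1-ox minus WT was -1.25, -1.87 and -3.14 at HAI1 and -2.03, -1.97 and -3.34 at HAI2. At PP2CA the 3 values were -0.37, -0.63 and -1.02, and at ABI2 they were -0.25, -0.20 and -1.0. ABI1 had 0.41, 0.04 and -0.43. The direction was therefore shared by the 3 numbers at every gene but ABI1. Among the arrays numbered 1 and 2 only, the fitted differences were -1.56 for HAI1 (limma, adjusted p = 0.107), -2.00 for HAI2 (0.0192) and -3.79 for AT3G16800 (0.0245). That fit called 2201 probe sets, against 405 with all arrays.

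**Figure D4:**
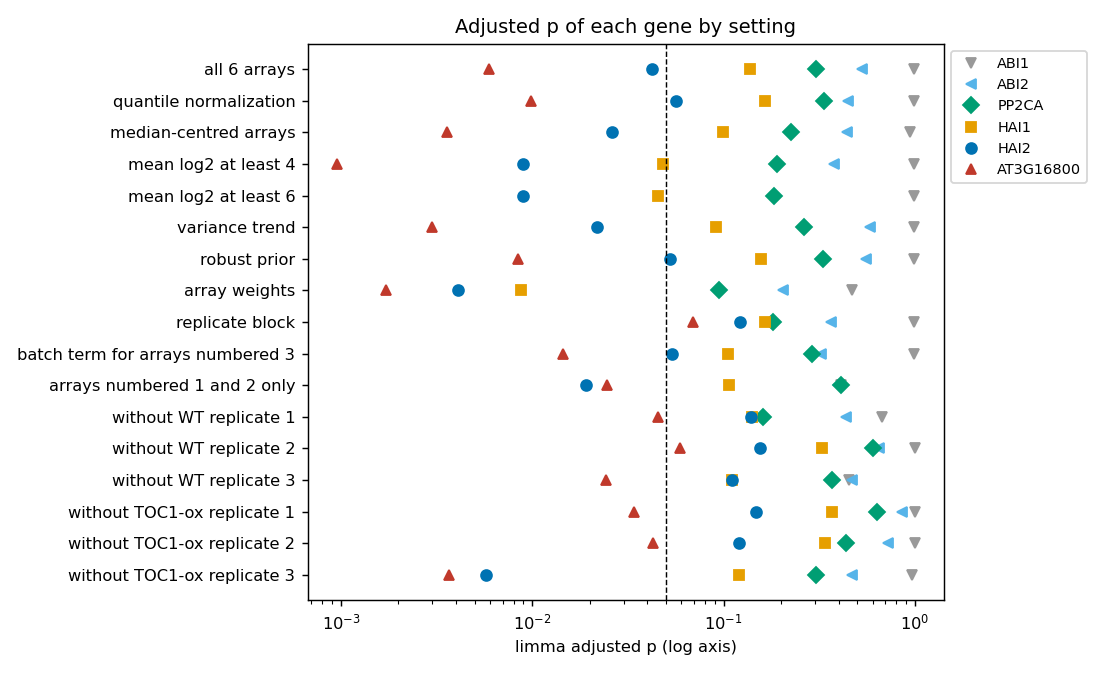
Limma adjusted p (horizontal log axis) of each phosphatase gene in the fit of all 6 arrays and in each alternative fit (rows); the dashed line marks 0.05. Leaving aside the 2 filters on mean level, AT3G16800 lies left of the line in 12 of 14 alternatives, HAI2 in 5 of 14 and HAI1 in 1 of 14, while ABI1, ABI2 and PP2CA never do.

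The members were also compared with each other over the 6 arrays. Pearson's r of the log2 values was 0.951 between HAI2 and AT3G16800, 0.912 between PP2CA and HAI1, 0.891 between ABI2 and HAI1 and 0.889 between HAI1 and HAI2. ABI1 was least like the others, with r of 0.114 to HAI2 and -0.051 to AT3G16800. These values describe 6 arrays in 2 groups and largely follow the difference between the groups where there is one.

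Most other genes of the ABA pathway could not be read under a name. The lists held 14 ABA receptors, 4 other clade A phosphatases, 10 SnRK2 kinases, 7 transcription factors, 10 genes of ABA synthesis and 4 of ABA breakdown, and the annotation used names a probe set for 0 of them. Of 12 ABA-responsive target genes, 4 were measured and 0 passed (limma; 2 had an unadjusted p under 0.05, which 16.4% of all probe sets had), with a median difference of -2.30. COR15A and COR15B, whose proteins protect chloroplast membranes in the cold, had groups that did not overlap, with TOC1-ox below WT as at 10.8% of all probe sets. COR15A had 14.11, 14.13 and 11.22 in WT and 9.45, 8.26 and 8.17 in TOC1-ox (adjusted p = 0.1). COR15B had 10.72, 11.60 and 8.92 in WT and 6.50, 6.39 and 6.96 in TOC1-ox (adjusted p = 0.0826). Both were lowest among the WT arrays in replicate 3, which differed from the mean of WT replicates 1 and 2 by -2.9 at COR15A and -2.23 at COR15B, whereas the clade A genes were highest there. Among the arrays numbered 1 and 2 both passed (COR15A -5.27 and COR15B -4.71, limma adjusted p = 0.0403 and 0.0332). That fit called 2201 probe sets, against 405 with all arrays. Without WT replicate 3, with 188 probe sets called, COR15B passed (-4.54, limma adjusted p = 0.0488) and COR15A did not (-5.50, 0.0553). The dehydrin genes LTI30 and COR47 had differences of -0.81 and -0.33 (adjusted p = 0.512 and 0.863), and COR47 had 0.14 without TOC1-ox replicate 3 (adjusted p = 0.905).

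**Figure D5:**
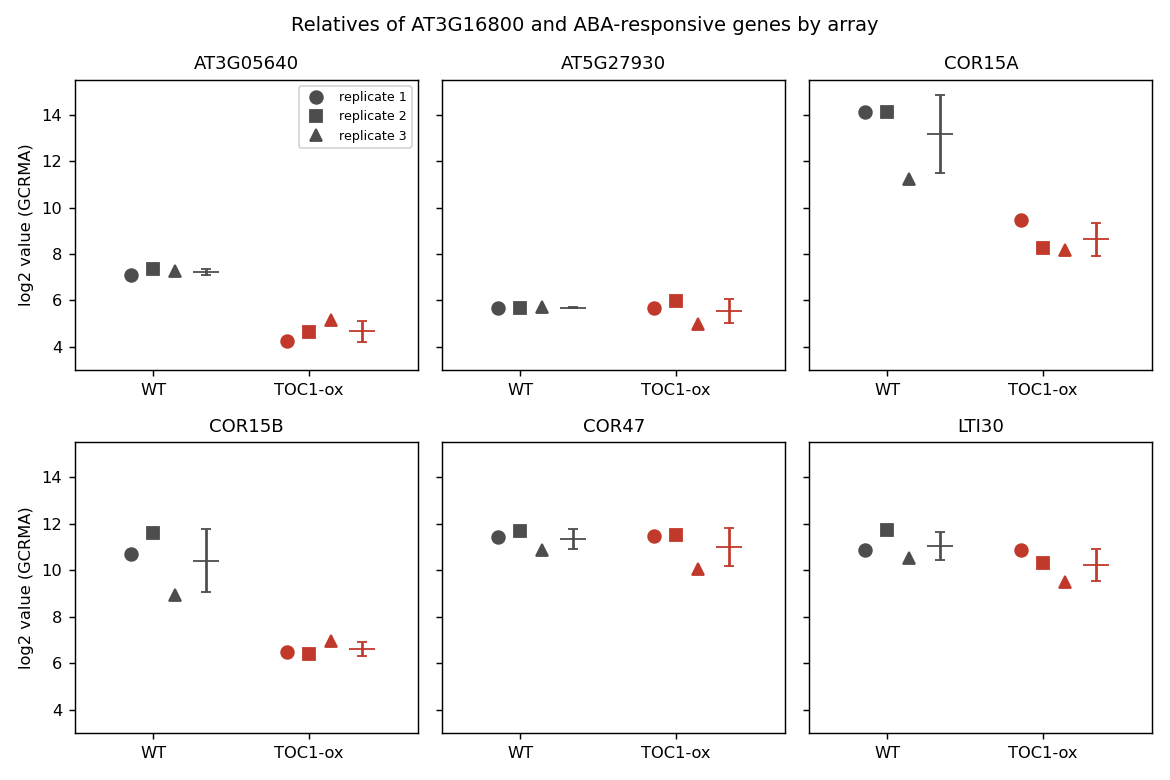
Log2 values by array of AT3G05640 and AT5G27930, 2 relatives of AT3G16800, and of 4 ABA-responsive genes, with WT in grey, TOC1-ox in red and the mean and SD of 3 arrays to the right. AT3G05640, COR15A and COR15B show no overlap between the groups, and COR15A and COR15B are lowest among WT arrays in replicate 3.

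The genes most like each phosphatase were sought among 2947 named probe sets that averaged log2 4 or more and ranged over 1 or more, by Pearson's r over the 6 arrays. For ABI1 they were AT1G08230 (r = 0.98) and AT5G37790 (0.962), for ABI2 AT3G61160 (0.979) and AT1G51840 (0.974), and for PP2CA PRA8 (0.961) and AT1G04140 (0.958). For HAI1 they were AT4G23870 (0.995) and AT4G36600 (0.987), for HAI2 AT5G23460 (0.995) and AT5G47180 (0.994), and for AT3G16800 the thionin gene THI2.2 (0.993) and AT2G33390 (0.991). AT4G23870 had 8.22, 8.76 and 10.08 in WT and 6.88, 7.07 and 6.67 in TOC1-ox, and so shared with HAI1 the high value in WT replicate 3. By the mean r to the 5 phosphatase genes with a range of at least 1, which leaves out ABI1, the nearest were AT4G23870 (0.909), AT5G44310 (0.905), AT4G19390 (0.904), AT1G02700 (0.902) and AT3G15670 (0.9). Since these genes were sought for a pattern that includes the group difference, their own differences are a description only. The WT mean of AT5G44310 was 5.42 and its TOC1-ox mean 3.15, and those of AT1G02700 were 5.05 and 3.27. AT3G15670 had 6.08, 7.07 and 8.91 in WT and 3.49, 3.24 and 2.22 in TOC1-ox. AT5G44310, AT1G02700, AT3G15670, AT4G36600 and THI2.2 met the level of log2 4 for the search only through their WT values.

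Markers of the organs in a seedling were read beside these values. Of 8 green shoot markers 4 were measured, with group means of 12.29 to 14.31 and differences of -0.12 to 0.45, none called (limma, smallest adjusted p = 0.654). Of 5 root markers the expansin genes EXPA7 and EXPA18 were measured. They had means of 5.77 and 7.51 in WT and 6.62 and 8.45 in TOC1-ox, and neither was called (limma, adjusted p = 0.129 and 0.266). The groups did not overlap at either gene, as at 20.1% of all probe sets when both directions are counted. None of 8 seed markers had a named probe set. What part a different share of root tissue has in the phosphatase values was not tested.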

How the data were processed

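Total RNA was labelled as biotinylated cRNA from 1 µg and hybridised to Affymetrix arrays, per the labels' protocols. The authors deposited log2 values for 22810 probe sets on 6 arrays, made with GCRMA, per the submitters' processing notes, which also name limma; the sources used here give no versions. The method draws dim probe sets together, so that folds are compressed where both groups lie under about log2 4. Of all values, 36.5% lie under this level. Where only 1 group lies there, the size of a difference is not well defined. Neither effect was measured here. Groups came from sample titles. The 64 control probe sets were left out, and the other 22746 entered a two-sided limma fit without covariates (version 3.58.1, R 4.3.3, lmFit and eBayes; 1.02 prior and 5.02 total degrees of freedom), with Benjamini-Hochberg adjustment over all of them. Differences carry limma's standard errors or 95% intervals, and SDs are over 3 arrays. P-values set the difference between the groups against the spread between these arrays, which limma draws toward a value shared by all probe sets. Arrays have no sequencing depth; their number limits the precision.

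The members and lists were chosen with earlier results of these data known. Genes were named from the platform annotation (1 gene for 13513 tested probe sets, 59.4%), with symbols from a TAIR10.1 gene table. A listed gene with several probe sets was taken at the one with the highest mean. Named were all 6 members, called list members or else the one with the largest difference, and the genes nearest in pattern by Pearson's r; other genes were picked after their values were seen. The procedure was run on simulated data with independent noise, in which no array stood apart. That run does not bear on the arrays numbered 3. Alternatives were other normalizations, filters, variance models, array weights, a block on the replicate number, a batch term and arrays left out. Figures were drawn with matplotlib 3.10.9. No coordinates or sequences are given, since no build is stated for the arrays.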

Additional observations from a re-analysis of the deposited data

How the results depend on the processing

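The filters on mean level are set apart here, since AT3G16800 met that of 4, and HAI1 and HAI2 that of 6, only through their WT values. In the 14 other alternatives AT3G16800 kept its direction and passed in 12. It did not pass with the replicate block (-3.70, adjusted p = 0.0696), and with single arrays left out its difference ran from -3.83 to -3.59. HAI2 kept its direction in those 14 and passed in 5; its difference was -2.48 after quantile normalization and -2.45 with a robust prior, the replicate block or the batch term, none of which passed, and -2.65 to -2.12 with single arrays left out. HAI1 passed in 1 of the 14, with array weights (-1.80); it was also called under both filters (-2.08 each). ABI2 and PP2CA never passed, at -0.69 to -0.17 and -0.93 to -0.50. The sign of ABI1 turned with median-centred arrays (-0.02) and with single arrays left out, where it ran from -0.18 to 0.19, including -0.01 without TOC1-ox replicate 1 and without TOC1-ox replicate 2. ABI2 and AT3G16800 have no value with a mean of at least 6, which leaves them out.

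The number of probe sets called, 405 with all arrays, was 248 after quantile normalization, 262 with a robust prior, 852 and 641 with a mean of at least 4 and 6, 6182 with array weights, 2201 among the arrays numbered 1 and 2, and 8 to 2955 with single arrays left out. With the replicate block it was 0, with 4317 at an unadjusted p under 0.05 against 3725 without it. Same-numbered arrays correlated in their deviations from the group means at 0.299, -0.012 and 0.082, and arrays of different numbers at -0.186 to 0.109. Deviations from a mean of 3 arrays depend on each other, so these values cannot decide whether the numbers are pairs. The fit of all arrays did not pair them, since the labels do not describe pairs. Higher calls were 245 of 405 with all arrays and 2877 of 6182 with array weights. Of the 7 named pathway probe sets, AT3G05640 was the 1 called with all arrays; 3 were called, COR15A and COR15B added, with a mean of at least 4, array weights or arrays 1 and 2, 2 with a mean of at least 6 or a variance trend, 0 with the replicate block and 0 to 1 with single arrays left out. The filters test fewer probe sets and some fits use fewer arrays, but the cause of the changed counts was not tested for any setting.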
